A study of Mus musculus with 6 samples.

Results

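Isoforms that carry splice junctions absent from the annotation were taken from a table of transcripts assembled from mouse spinal cord RNA. The members are the isoforms with class code j, and 14648 of the 194125 isoforms in the table had it. A further 78509 isoforms had class code =, which marks a match to an annotated transcript. Members were described by their FPKM (fragments scaled to transcript length and to library size) in each library. They were also described as a share of the summed FPKM of the class = and class j isoforms with the same gene name. Their exon structures are not in the table, so each one is known from its ends, strand, number of exons and length.

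The spinal cords behind the 6 libraries were those of 8-week-old C57BL/6 males, an inbred mouse strain. The 3 TSCI libraries are from mice with a moderate traumatic injury, made by a dropped weight after laminectomy of thoracic vertebrae 8 to 10 under pentobarbital. The 3 sham libraries are from mice that had the laminectomy and no injury, so both groups share the opened vertebral arch and the anaesthesia. The labels name 48 mice in sets of 8, and state neither pooling within a set nor the time between injury and sampling. For that reason p-values rest on the spread between these libraries, which may be technical. In the test of isoform levels that spread is pooled over isoforms and is not the isoform's own. Markers of the labelled tissue were present in every library: the myelin gene Mog had 31.2 to 77.8 FPKM and the synaptic gene Snap25 had 68.7 to 332 FPKM.

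Introns are removed from a primary transcript by the spliceosome, and the choice of splice sites decides which exons a messenger RNA holds. An isoform can differ from the annotated form by skipping an exon, adding one, keeping an intron or moving one splice site, and a change that is not a multiple of a codon shifts the reading frame. Nervous tissue is known for wide use of alternative exons, and several splicing regulators (Nova, Mbnl, Celf and Ptbp proteins) act there. Assemblers build isoforms from overlapping short reads, so a new junction in the table can stand for a real splice form or for reads joined across similar sequences.

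A skipped exon could be read from the exon number and length in 262 members. The 6 sequences below show what such an isoform lacks. They are the 6 of highest mean FPKM among 14 isoforms above 0 in at least 5 libraries whose skipped exon, of at most 200 bases, and both flanking exons are coding. Capitals mark the exon of the annotated transcript that the reading leaves out, and lower case marks the 20 bases of exon on each side, so the isoform would join the 2 lower case parts. Sequences are from GENCODE M21 transcripts (GRCm38), 5′ to 3′ on the transcript strand.
Ppp2r5c: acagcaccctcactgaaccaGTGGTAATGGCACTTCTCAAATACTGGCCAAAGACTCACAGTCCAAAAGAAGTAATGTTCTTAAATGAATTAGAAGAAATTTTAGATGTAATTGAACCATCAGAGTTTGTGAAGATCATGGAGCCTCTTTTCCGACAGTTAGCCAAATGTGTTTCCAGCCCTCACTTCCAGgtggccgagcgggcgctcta
Usp34: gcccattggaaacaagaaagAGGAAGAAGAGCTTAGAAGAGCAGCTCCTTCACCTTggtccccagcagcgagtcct
Efcab14: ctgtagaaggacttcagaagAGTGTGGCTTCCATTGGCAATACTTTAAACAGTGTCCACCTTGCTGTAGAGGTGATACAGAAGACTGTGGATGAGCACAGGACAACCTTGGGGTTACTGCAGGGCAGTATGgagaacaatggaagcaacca
Aspa: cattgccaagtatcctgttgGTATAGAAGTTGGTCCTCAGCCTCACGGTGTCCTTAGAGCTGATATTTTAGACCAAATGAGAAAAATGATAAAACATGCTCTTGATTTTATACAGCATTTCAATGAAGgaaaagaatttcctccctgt
Dtnb: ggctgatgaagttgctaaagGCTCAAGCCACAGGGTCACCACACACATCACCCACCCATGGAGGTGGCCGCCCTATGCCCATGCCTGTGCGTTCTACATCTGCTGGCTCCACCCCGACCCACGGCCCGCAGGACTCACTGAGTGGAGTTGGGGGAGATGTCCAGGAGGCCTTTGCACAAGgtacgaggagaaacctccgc
Dzank1: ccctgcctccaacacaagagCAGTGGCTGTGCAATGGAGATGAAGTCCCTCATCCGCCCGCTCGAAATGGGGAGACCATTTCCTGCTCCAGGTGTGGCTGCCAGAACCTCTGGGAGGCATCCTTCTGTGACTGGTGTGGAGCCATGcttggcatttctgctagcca

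The exon of Ppp2r5c, a regulatory subunit of protein phosphatase 2A, is exon 9 of 12 at chr12:110561298-110561468 (plus strand) and has 171 bases. That of Usp34, a ubiquitin-specific protease, is exon 13 of 80 at chr11:23362577-23362612 (plus strand) and has 36 bases. Efcab14, a gene for a protein with EF-hand motifs, would lack exon 5 of 11 at chr4:115756433-115756543 (plus strand), of 111 bases. Aspa, the oligodendrocyte enzyme that cleaves N-acetylaspartate, would lack exon 4 of 6 at chr11:73313510-73313617 (minus strand), of 108 bases. Dtnb, which encodes beta-dystrobrevin of the dystrophin complex, would lack exon 16 of 18 at chr12:3772587-3772746 (plus strand), of 160 bases, and Dzank1 exon 11 of 21 at chr2:144491772-144491897 (minus strand), of 126 bases. All but the Dtnb exon, which leaves a remainder of 1, are multiples of 3 bases and would keep the reading frame. Other structures can give the same exon number and length, so these readings are descriptions and not observed junctions.

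The isoform of Ppp2r5c read as lacking this exon was above 0 in every library. It had 8.76, 4.06 and 9.76 FPKM in TSCI replicates 1 to 3 and 8.16, 9.42 and 6.22 FPKM in sham replicates 1 to 3, which is 35.3%, 38.4% and 38.6% of the gene in TSCI and 21.5%, 55.8% and 52.9% in sham. The groups overlapped on both scales. For Usp34 the isoform had 17.3, 5.48 and 3.65 FPKM in TSCI and 1.74, 0.836 and 0 FPKM in sham, or 63.2%, 58.3% and 18.9% of the gene against 5.85%, 3.57% and 0%, and the groups did not overlap. The Aspa isoform was high in 1 library, at 17.7 FPKM and 87.9% of the gene in sham replicate 2, and at most 2.01 FPKM in the other 5. Levels were 1.55 to 9.95 FPKM for Efcab14, 0 to 9.94 FPKM for Dtnb and 0 to 10.3 FPKM for Dzank1, with groups that overlapped. Of 182 isoforms read as a skipped exon only and tested in level as described below, none passed (limma; 11 had an unadjusted p under 0.05).

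The 4 sequences below show the first exon junction of the adult globin genes, whose isoforms led the class in level. Lower case marks the last 30 bases of the first exon and capitals the first 30 bases of the second (GENCODE M21, GRCm38, coding strand).
Hba-a1: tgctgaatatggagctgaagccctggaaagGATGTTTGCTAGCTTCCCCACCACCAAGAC
Hba-a2: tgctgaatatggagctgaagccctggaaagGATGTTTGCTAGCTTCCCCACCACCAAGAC
Hbb-bs: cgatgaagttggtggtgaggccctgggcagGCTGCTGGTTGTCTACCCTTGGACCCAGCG
Hbb-bt: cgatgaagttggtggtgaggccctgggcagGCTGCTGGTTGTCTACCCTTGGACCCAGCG
The alpha-globin genes Hba-a1 (chr11:32283511-32284465) and Hba-a2 (chr11:32296489-32297298) share 425 of 426 coding bases. The beta-globin genes Hbb-bs (chr7:103826534-103827928) and Hbb-bt (chr7:103812524-103813996) share 440 of 441. The alpha-tubulin genes Tuba1a and Tuba1b share 1330 of 1353. The printed stretches are the same within each globin pair, so reads there could be assigned to either copy, and the values of isoforms that run from one copy to the other are uncertain.

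Members came from 7247 gene names, and 14322 (97.8%) matched a gene of the annotation by name, chromosome and strand. Of these, 13745 (96.0%) were from protein-coding genes and 201 from lincRNA genes. The median member had 9 exons and 2353 bases, against 5 exons and 1414 bases for class = isoforms of more than 1 exon. Its ends often differed from annotated ones: 47.1% of the matched members had a 5′ end within 50 bases of an annotated start of the gene, 38.2% had a 3′ end within 50 bases of an annotated end, and 18.2% had both. A further 345 began more than 1000 bases upstream of the gene, 585 ended more than 1000 bases downstream, and 1366 (9.54%) had more exons than any annotated transcript of the gene. Members that covered at least 50% of 2 or more coding genes numbered 163, and 16 of them covered 3 or more. Most genes with a member had few: 3926 had 1 and 532 had 5 or more. Macf1, which encodes a giant linker of microtubules and actin, had 22, and the axonal ankyrin gene Ank2 had 17.

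The exon number and length of 2829 matched members could come from 1 structural event, or equalled those of an annotated transcript once the ends were allowed for. Neither was found for 11493. An added exon was read in 709, a splice site shifted by up to 30 bases in 655, a retained intron in 501 and a skipped exon in 262. A further 249 had the same number and length. The remaining 453 fitted several readings, or a skipped exon with more than 1 possible junction. Among the 584 shifts of 1 possible size, 147 were of 3 bases (92 shorter, 55 longer), 51 of 4 bases and 11 of 2 bases, and 51.9% were multiples of 3. A shift of 3 bases is the size of tandem acceptor sites, where a repeated AG lets the spliceosome use either copy. Of the 198 skipped exons inside a coding sequence, 101 (51.0%) were multiples of 3, compared with 41.1% of 165258 internal coding exons in the annotation. The added exons had a median of 91.5 bases, of which 47.9% were multiples of 3, and the retained introns a median of 251 bases.

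**Figure D1:**
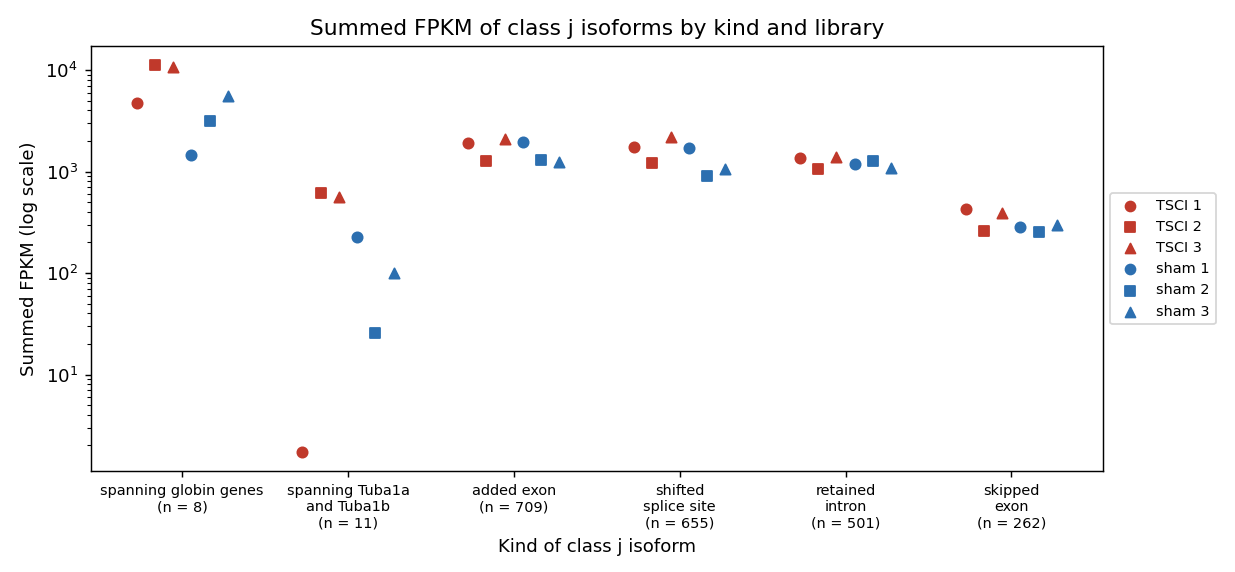
Summed FPKM (log scale) of class j isoforms by structural kind, with 1 point per library (TSCI red, sham blue, replicate by symbol) and n the number of isoforms. The 8 isoforms that span globin genes range from 1443 to 11140 FPKM, while the 709 added exon isoforms lie between 1241 and 2093 FPKM in the 6 libraries, with both groups mixed.

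Detection differed widely between libraries, also within a group. Members above 0 numbered 8927, 9584 and 10924 in TSCI replicates 1 to 3 and 10532, 4435 and 7086 in sham replicates 1 to 3. Sham replicate 2 had the fewest, and the groups overlapped (exact two-sided permutation p = 0.3, where 3 against 3 cannot go below 0.1). In that library 25.9% of class = isoforms were above 0 as well, against 46.0% to 74.7% in the others. Aligned bases ran from 4.46 to 9.16 gigabases. Both libraries of lane 8, TSCI replicate 1 and sham replicate 1, had the highest class j share. In all, 1900 members (13.0%) were above 0 in every library and 2080 (14.2%) in 1. Because a value of exactly 0 may come from an estimate that failed, such values are called listed at 0.

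The first comparison asked whether class j isoforms took a larger part of the RNA after injury. They held 13.6%, 6.52% and 10.3% of the class = and j FPKM in TSCI replicates 1 to 3 and 15.1%, 6.36% and 5.77% in sham replicates 1 to 3. The groups overlapped fully, at 10.2% ± 3.54 against 9.07% ± 5.22 (SD, n = 3 each; exact two-sided permutation p = 0.8). As a share of aligned bases the values were 14.8% ± 2.24 for TSCI and 16.5% ± 4.03 for sham libraries (SD, n = 3 each; exact two-sided permutation p = 0.7), with the lower mean now in TSCI. The difference of 1.08 points in FPKM share became -0.216 points without the 10 members of highest mean, which are mostly globin isoforms. Without both lane 8 libraries it was 2.37 points.

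**Figure D2:**
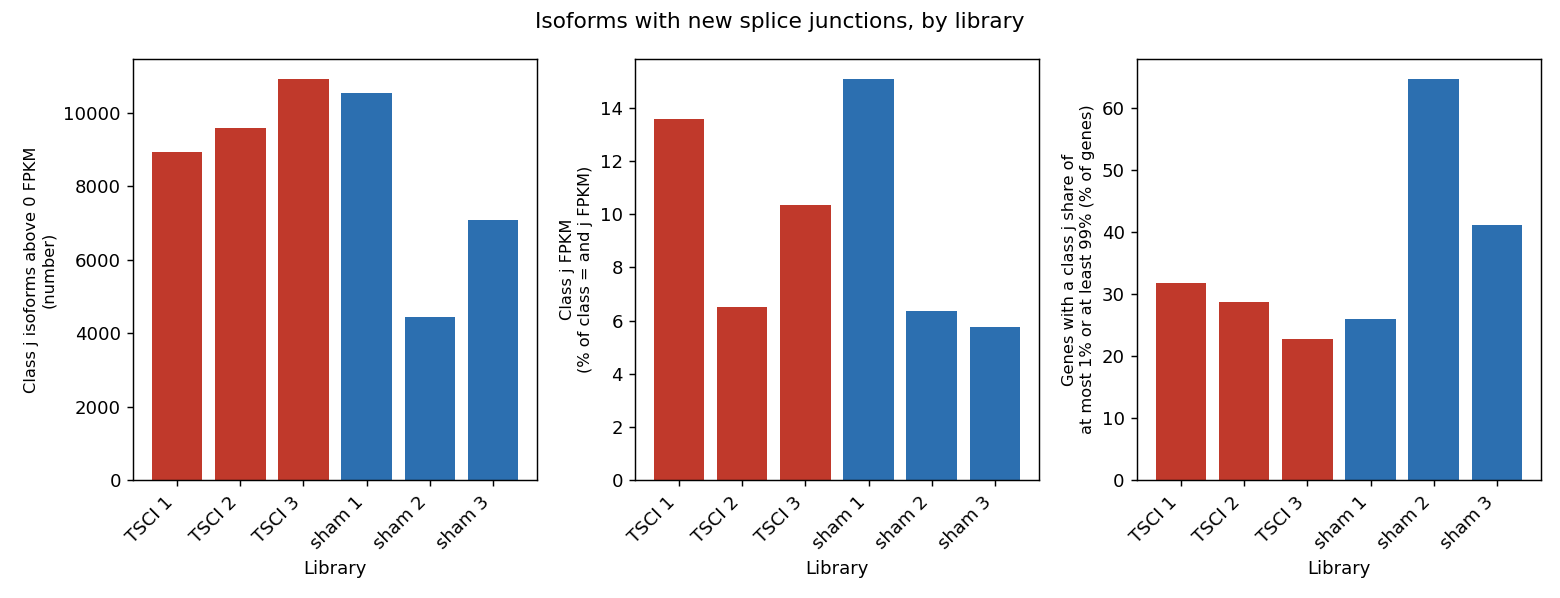
For each library (TSCI red, sham blue), the bars give the number of class j isoforms above 0 FPKM, their percent of class = and j FPKM, and the percent of 5159 genes whose class j share was at most 1% or at least 99%. Sham replicate 2 has the fewest members, 4435, and the most genes at an extreme share, 64.7%.

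The members of highest level were globin isoforms that run across gene copies. Globins carry oxygen in red blood cells, which reach the cord in blood. The isoform MSTRG.104600.4 of Hbb-bt (chr7:103812527-103828096, 5 exons) had 620, 8338 and 2739 FPKM in TSCI and 124, 41.6 and 1066 FPKM in sham, with overlapping groups. Together the 8 isoforms that span globin genes held 12.4%, 28.1% and 24.4% of all class j FPKM in TSCI and 4.0%, 8.66% and 16.4% in sham, again overlapping. Of the 10 members with the highest mean, 7 were globin isoforms, and the others were from Rps24 and Rps14, genes of the small ribosomal subunit, and Cox6c, a subunit of cytochrome c oxidase. The Rps14 isoform had 0, 2060 and 413 FPKM in TSCI and was listed at 0 in sham, so the groups overlapped, and it was among those called higher in the test of levels below (limma, adjusted p = 2.32e-08). The Cox6c isoform (chr15:35926368-35938246) was listed at 0 in TSCI replicate 1 and sham replicate 1 and had 1346 FPKM in sham replicate 2. Red cell RNA differed widely between libraries: summed FPKM over 12 of 13 erythroid genes, a list chosen after the values were seen, ran from 9131 to 140478 in TSCI and from 3056 to 30585 in sham. Alas2, the heme synthesis enzyme of red cells, had 71.2, 110 and 265 FPKM in TSCI and 27.1, 4.47 and 21.2 FPKM in sham, while Klf1, a regulator of red cell genes, was listed at 0 in 4 libraries and at most 0.546 FPKM in the others. The part of these transcripts in the results for globin isoforms was not tested.

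The next comparison asked which single isoforms differed in level. It used limma on log2(FPKM + 0.5) with adjustment over 89293 isoforms of all classes, and 11197 members had a mean of at least 0.5 FPKM. At an adjusted p under 0.05, 41 members from 39 genes were called (0.366%), against 0.208% of all isoforms tested and 0.481% of class = isoforms. Of the 41, 28 were higher in TSCI (0.25%, against 0.17% of all isoforms) and 13 lower (0.116%, against 0.0381%). Groups did not overlap in 927 members (8.28%, against 7.11% of all isoforms), and in 29 of the 41. Of the 927, 640 were higher (5.72%, against 5.64%) and 287 lower (2.56%, against 1.46%). A difference here is on the log2(FPKM + 0.5) scale, which understates the change of low isoforms. The median difference was 0.44 over all isoforms, 0.40 over class = and 0.27 over class j, so a called value is read relative to a small general shift. That shift was 0.34 with median-ratio scaling and 0.27 with quantile normalization, under which 18 higher and 3 lower members were called.

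These calls rest on a variance pooled over isoforms along a trend, with a median standard error of 1.06, and they depended on few libraries. With lane 8 as a covariate no member was called (limma; 1018 had an unadjusted p under 0.05), without both lane 8 libraries 1 was, and without sham replicate 1 alone 212 were. With each isoform's own variance 4 were called, none among the 41. Only 2 of the 41 were above 0 in every library, as were 1852 of the 11197 members tested. In sham replicate 2, 24 of the 28 higher ones were listed at 0, but only 30.3% of all members were above 0 in that library. Sham replicate 2 was the highest library in 10 of the 13 lower ones, a count with no share over all members beside it. In bulk tissue, fewer cells of a type and less RNA per cell cannot be told apart.

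**Figure D3:**
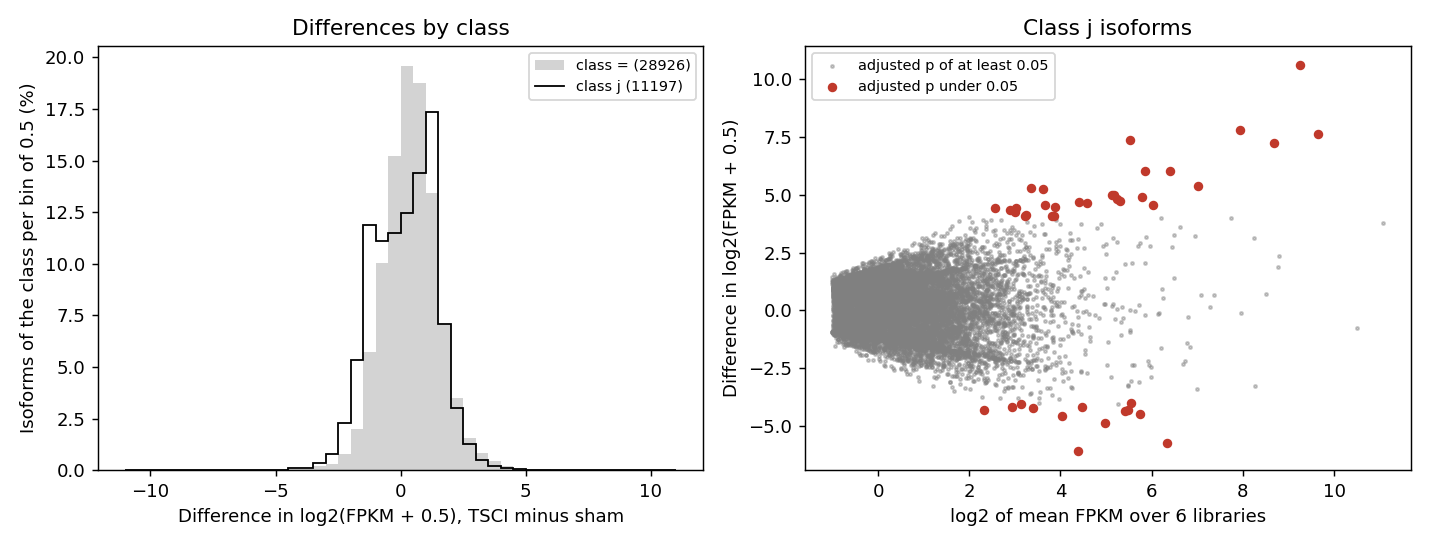
Left, percent of class j (black line) and class = (grey) isoforms per bin of the difference in log2(FPKM + 0.5), TSCI minus sham. Right, that difference for each of 11197 class j isoforms against the log2 of its mean FPKM, where red points are the 41 with an adjusted p under 0.05, all of them far from 0 on the vertical axis.

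Members called higher without overlap between the groups included isoforms of Hba-a1, Vim, Serpina3n and Tuba1a. The call of lowest p among all 41 was MSTRG.16084.6 of Hba-a1 (chr11:32283637-32297311), with 990, 190 and 2487 FPKM in TSCI and listed at 0 in all sham libraries (limma, adjusted p = 1.34e-19). This isoform reaches from Hba-a1 into Hba-a2 and carries the uncertainty of those copies. Vim encodes vimentin, a filament protein that reactive astrocytes make. Its only member, MSTRG.58640.3 (chr2:13573960-13582828, 10 exons, 1854 bases), had 620, 282 and 538 FPKM in TSCI, against 32.7, 0 and 0 in sham. It was higher in every TSCI library, by 7.81 ± 1.05 on the log2 scale (SE; limma, adjusted p = 1.71e-09). The class = isoforms of Vim had 53.9, 77.0 and 51.8 FPKM in TSCI, against 8.91, 36.0 and 28.3 in sham, also without overlap. The member held 92.0%, 78.6% and 91.2% of the gene in TSCI, 78.6% in sham replicate 1 and nothing in the other sham libraries. The share difference of 61.1 ± 24.1 points (SE) missed the threshold (limma, adjusted p = 0.72).

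Serpina3n encodes a secreted protease inhibitor of reactive astrocytes and belongs to a cluster of closely related genes, so reads can be split between copies. Its member MSTRG.25770.5 (chr12:104387185-104414330) had 155, 66.6 and 53.4 FPKM in TSCI and was listed at 0 in sham (limma, adjusted p = 1.13e-08). A second member with the same ends, MSTRG.25770.4, also passed, with 28.9, 17.0 and 26.3 FPKM in TSCI and at most 3.54 in sham. Annotated isoforms of the gene had 274, 135 and 370 FPKM in TSCI against 15.9, 0 and 0.91 in sham. Thus both classes of Serpina3n were higher in every TSCI library, and the class j share of the gene overlapped between groups. S100a6, a calcium-binding protein, had a member at 0.921, 154 and 53.1 FPKM in TSCI, against 0.0487, 0 and 0.833 in sham (4.99 ± 1.04 on the log2 scale, SE; limma, adjusted p = 0.00176). TSCI replicate 1 lay just above the highest sham library there.

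Mpeg1 encodes perforin-2, a pore-forming protein of macrophages and microglia. Its member MSTRG.55816.2 (chr19:12460790-12465278, 2 exons) had 9.73, 12.5 and 51.2 FPKM after injury and was listed at 0 in sham (limma, adjusted p = 0.000738). It made up 15.2%, 16.7% and 31.0% of the gene in TSCI, where class = isoforms had 54.2, 62.7 and 114 FPKM against 1.93 to 7.48 in sham. A new isoform of Fgf1, a fibroblast growth factor found in neurons, had 25.0, 11 and 25.1 FPKM in TSCI and was listed at 0 in sham (limma, adjusted p = 0.000652). Fgf1 as a whole was mostly class j in both groups, at 90.0% to 100% in TSCI and 70.1% to 96.2% in sham. The level of this 1 isoform therefore differed while the class j share of the gene overlapped.

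Other named higher members came from Tuba1a, Rps12, Sepp1 and Gm20425. An isoform of Tuba1a that reaches into Tuba1b (chr15:98931426-98953675) had 1.73, 93.0 and 255 FPKM in TSCI, against 0.138, 0.098 and 0 in sham (6.03 ± 1.03 on the log2 scale, SE; limma, adjusted p = 2.18e-05). One of Rps12, a ribosomal protein gene, had 86.5, 187 and 191 FPKM in TSCI, against 43.8, 0 and 0 in sham. Sepp1, the selenium transport protein, had a member at 13.4, 158 and 50.6 FPKM in TSCI, against 2.70, 0 and 2.72 in sham. The predicted gene Gm20425 had one at 34.1, 94.3 and 96.0 FPKM against 10.3, 0 and 2.59. All 4 passed (limma, adjusted p from 2.18e-05 to 0.00499) with groups that did not overlap. Of the 28 higher members, 21 were in genes whose class = isoforms were higher on average too. In 17 the summed class = and j level of the gene was higher without overlap. That sum holds the member itself, and the median difference over all class = isoforms tested was itself 0.40. No share over all members or genes is given for either count, so neither is separate support.

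Members called lower included isoforms of Gphn, Cadps and Eno2. Gphn encodes gephyrin, the scaffold of inhibitory synapses. Its member MSTRG.24728.4 (chr12:78343353-78562858, 9 exons, 841 bases) was listed at 0 in TSCI and had 13.7, 78.7 and 33.6 FPKM in sham (limma, adjusted p = 1.86e-05). It made up 36.8%, 87.3% and 68.8% of the gene in sham, but the class j share of Gphn as a whole overlapped, at 49.1% to 99.2% in TSCI and 50.5% to 90.5% in sham, so other members held that share in TSCI. Cadps, which primes dense core vesicles for release, had 1 of its 14 members listed at 0 in TSCI and at 7.66, 14.6 and 7.64 FPKM in sham (limma, adjusted p = 0.0215). Its other members held a class j share of the gene of 90.0% to 94.6% in TSCI, where all members together held 91.4% to 99.4% in sham.

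Eno2, the enolase of neurons, had a member whose length fits a splice site moved by 3 bases (MSTRG.97412.4, chr6:124760314-124769550). It had 0, 1.07 and 4.32 FPKM in TSCI, against 9.09, 96.7 and 23.1 in sham, with sham replicate 2 the highest. It fell by 4.17 ± 1.03 on the log2 scale (SE; limma, adjusted p = 0.0313). A member of Ddx3x, an X-linked RNA helicase gene, fits a retained intron. It had 0.323, 0 and 0 FPKM in TSCI, against 0.883, 27.4 and 24.1 in sham (limma, adjusted p = 0.0485). In sham replicates 2 and 3 it was the whole of the gene, whose class = isoforms were listed at 0 there and had 10.8 to 30.8 FPKM in the other 4 libraries.

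The other 4 genes named by lowest p had members that passed with higher sham levels and no overlap. Ubb, a polyubiquitin gene, had one listed at 0 in TSCI and at 46.8, 51.1 and 0.199 FPKM in sham. Ankrd12 had one at 0.155, 1.79 and 0.771 FPKM against 2.39, 291 and 23.9. For Mkln1, which encodes muskelin, the values were 0, 0 and 0.286 FPKM against 2.72, 53.5 and 6.69, and for Rabep1, the endosomal rabaptin, at most 0.455 FPKM against 8.03, 33.2 and 4.28. In each of these 4 genes the highest level was that of sham replicate 2. Members of Pcdh15, a protocadherin gene (0.415, 0 and 0.00371 FPKM against 0.458, 48.6 and 19.4), and Ktn1, the kinectin gene (0, 0.0854 and 0.53 FPKM against 1.83, 15.8 and 20.1), missed the threshold (limma, adjusted p = 0.057 and 0.0965). For 6 of the 13 called lower, the summed class = and j level of the gene was also lower without overlap. This sum too holds the member itself, so the count is no separate support.

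**Figure D4:**
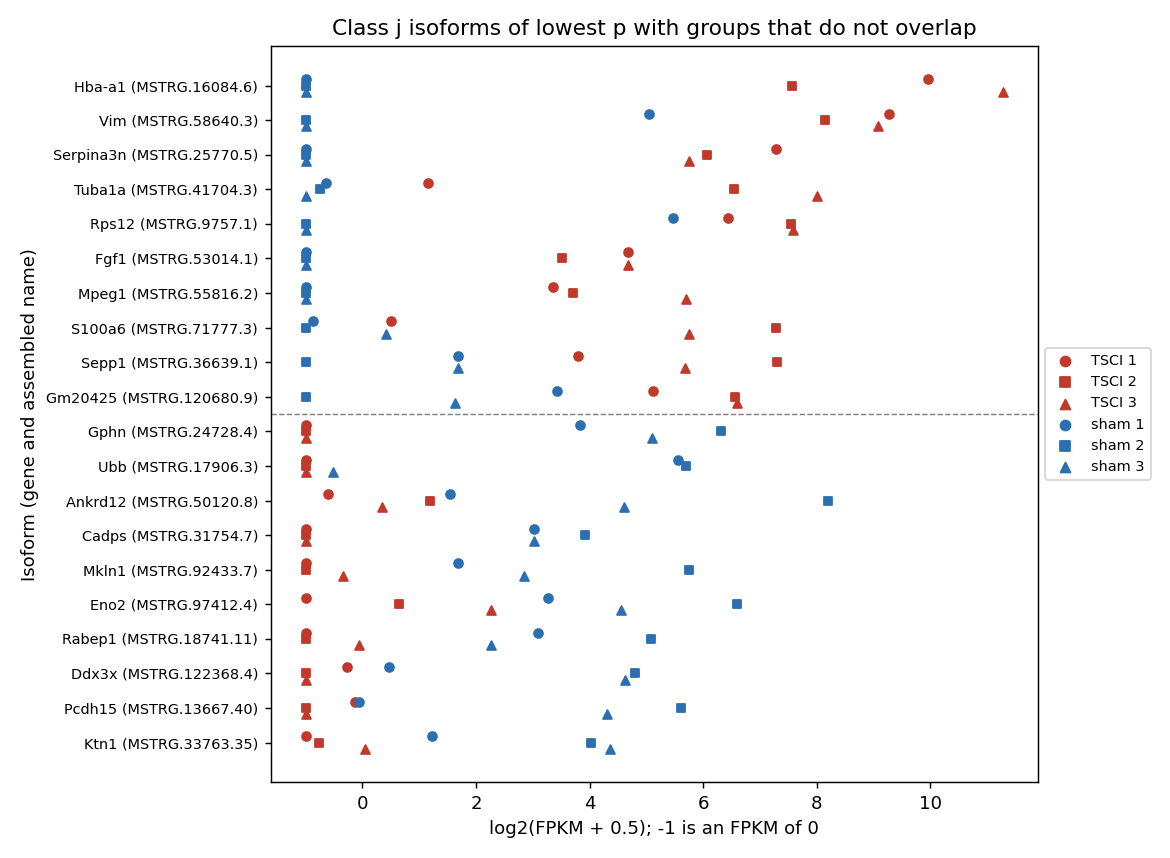
Level of each named isoform as log2(FPKM + 0.5) in the 3 TSCI (red) and 3 sham (blue) libraries, with symbols for replicates; -1 stands for an FPKM of 0. Above the dashed line every TSCI point lies right of every sham point, and below it left; Pcdh15 and Ktn1 did not pass the test.

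The next question was whether genes moved between annotated and new isoforms. Both classes were present in 7203 genes, and 44 had class j only. In 5159 genes the summed class = and j level was at least 1 FPKM in every library. None of their class j shares passed (limma, smallest adjusted p = 0.72; 123, or 2.38%, had an unadjusted p under 0.05), and 485 (9.4%) did not overlap, 266 (5.16%) higher and 219 (4.25%) lower in TSCI. Single isoforms gave the same count of 0 among 9318 members (limma, smallest adjusted p = 0.713; 132, or 1.42%, had an unadjusted p under 0.05), with 864 (9.27%) not overlapping, against 9.78% of class = and j isoforms. The median standard error of a gene share difference was 20.3 points, so only shifts of most of a gene could have passed, and many of those would be missed. Shares of at most 1% or at least 99% were found for 64.7% of the genes in sham replicate 2 and 22.8% to 41.1% in the other libraries.

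The genes named here are those of lowest p whose groups did not overlap, and none passed. Groups of 3 against 3 that do not overlap have an exact two-sided permutation p of 0.1, so this choice is no support for a shift. Nmnat2 makes NAD in axons and is needed for their survival. Its class j isoforms held 84.4%, 79.1% and 79.0% of the gene in TSCI and 1.45%, 0% and 0% in sham. Class = isoforms of Nmnat2 had 1.72, 0.658 and 1.57 FPKM in TSCI against 35.5, 6.14 and 9.69 in sham, so the annotated form was lower in every TSCI library. Most of the class j level was MSTRG.6249.7 (chr1:153071206-153094680), which begins inside the gene (chr1:152954993-153119261) and had 4.90, 2.49 and 4.27 FPKM in TSCI. The share of the gene differed by 80.3 ± 20.6 points (SE; limma, adjusted p = 0.72).

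Adam17 encodes the sheddase that releases tumour necrosis factor from cell membranes, and its class j share was lower in TSCI. The share was 20.2%, 0.165% and 6.32% in TSCI and 91.3%, 100% and 95.8% in sham, a difference of -86.8 ± 18.4 points (SE; limma, adjusted p = 0.72). Annotated isoforms of Adam17 had 10.2, 8.09 and 12.9 FPKM in TSCI, against 0.462, 0 and 0.0693 in sham. The member behind the share, MSTRG.22404.5 (chr12:21323525-21373543, 18 exons), fits a retained intron and had 4.36, 1.35 and 1.57 FPKM in sham and 0 in TSCI. Tspan14, a tetraspanin that binds the related sheddase ADAM10, had a class j share of 0.744%, 0.0846% and 41.6% in TSCI and 100% in each sham library. Its only member fits an added exon (chr14:40906311-40966875) and had 9.04, 1.01 and 3.45 FPKM in sham, where class = isoforms were listed at 0.

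Further shares that were higher in every TSCI library included those of Cep126, Slc19a2 and Hist1h2be. Cep126, a centrosomal protein gene, had a class j share of 98.3%, 97.9% and 95.9% in TSCI and 50.3%, 0% and 0% in sham. Slc19a2, the thiamine transporter gene, had 65.2%, 82.6% and 85.7% against 2.53%, 0% and 0%, from gene sums of 1.17 to 4.10 FPKM. In Hist1h2be, a replication-dependent histone gene with many near copies, class j isoforms had 16.7, 49.5 and 31.9 FPKM in TSCI and were listed at 0 in sham. The other 5 genes were Ankrd13b, Fbxl6, Plekhh1 and Arfgap3 in this direction with TSCI shares of 50.9% to 100% and sham shares of at most 48.5%, and Ankrd49, whose member MSTRG.115308.1 held 100%, 96.4% and 87.9% of the gene in TSCI and nothing in sham. Single isoforms of Rmdn2, Xrcc6 (the DNA end-binding protein Ku70) and Vwa8 held 41.3% to 95.0% of their genes in TSCI and 0% to 39.6% in sham.

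Shares lower in every TSCI library included those of Dus2, Slitrk3, Srcin1 and Nle1. Dus2, a dihydrouridine synthase of transfer RNA, had 15.3%, 28.5% and 0% in TSCI and 90.9%, 100% and 100% in sham. Slitrk3, an adhesion protein of inhibitory synapses, had a member (chr3:73047265-73057887) that held at most 4.80% of the gene in TSCI and 71.0%, 100% and 100% in sham. Srcin1, a Src kinase inhibitor of synapses, had one at no more than 10.8% against 69.8%, 93.0% and 89.6%. Nle1, which acts in large ribosomal subunit assembly, had 0% in each TSCI library and 51.2%, 100% and 97.3% in sham. Mllt1, Ppp1r14c, Zmym1 and Kctd21 had class j shares of 0% to 71.0% in TSCI and 60.1% to 100% in sham. Members of Tmem181a and of Nrip1, a corepressor of nuclear receptors, held at most 25.3% in TSCI and at least 61.7% in sham. Many sham sums were low: those of Tspan14, Nle1, Slitrk3 and Dus2 in sham replicate 2 were 1.01, 1.71, 1.5 and 2.75 FPKM.

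**Figure D5:**
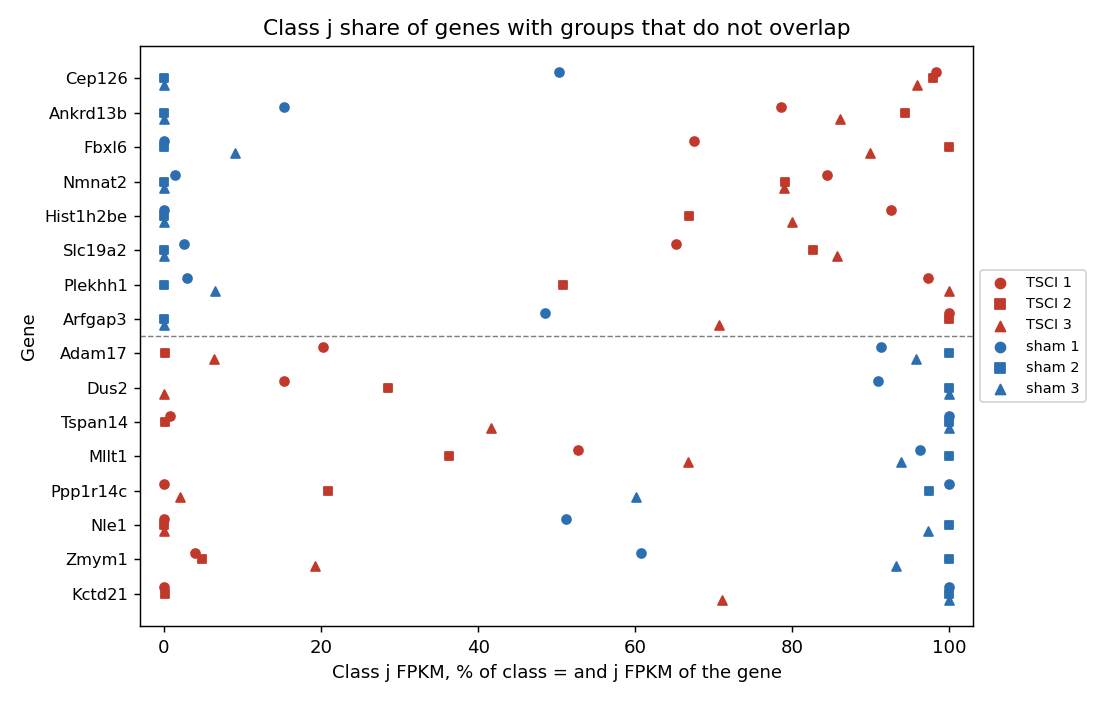
Class j FPKM as a percent of class = and j FPKM for the 16 genes of lowest p with groups that do not overlap, with 1 point per library (TSCI red, sham blue). Sham replicates 2 and 3 lie at or near 0% or 100% for most genes, and none of these differences passed the adjusted threshold.

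Members were also grouped by cell type and function. Of 48 genes of macrophages and other phagocytes, 21 had members, and 1 of 23 tested members was called higher (0.25% over class j), that of Plin2, a coat protein of lipid droplets (14.0, 22.2 and 47.0 FPKM in TSCI, 1.77, 2.09 and 0.0579 in sham). Their median difference was 1.44 on the log2 scale, against 0.27 over all class j isoforms tested. Class j isoforms were a small part of this list, at 2.48% to 3.57% of its FPKM in TSCI and 1.53% to 19.3% in sham. Mpeg1, whose isoform was called higher above, is not on this list. The whole list, all classes = and j summed, had 5256 to 11896 FPKM in TSCI and 1229 to 4154 in sham. The part of phagocyte number in these values was not tested.

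Among 42 genes of reactive astrocytes and matrix, 20 had members and 5 of 39 tested members were called higher (0.25% of all class j isoforms tested were) and none lower, namely those of Vim, S100a6 and Col3a1, a fibrillar collagen, and both of Serpina3n. Class j FPKM of this list was 1103, 685 and 954 in TSCI and 143, 111 and 106 in sham, which did not overlap. As a share of the list it was 24.5%, 21.3% and 24.4% in TSCI and 7.61%, 15.5% and 11.3% in sham. Much of the class j FPKM was the Vim isoform alone (620, 282 and 538 in TSCI, 32.7, 0 and 0 in sham). The list sum thus gives this isoform much weight and does not describe each gene of the list. Of the 39 tested members, 13 were higher and 1 lower without overlap, where 5.72% and 2.56% of all class j isoforms tested were. The median difference of the list's members was 1.17 on the log2 scale. No gene of the list passed in class j share, of 16 tested.

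In myelin and oligodendrocyte genes, 1 of 60 tested members was called higher (0.25% over class j), an isoform of Bcas1, a gene of early myelinating cells. It fits an added exon of 63 bases and had 246, 74.1 and 49.2 FPKM in TSCI, against 19.1, 0 and 6.78 in sham. Class j isoforms of Bcas1 together held 83.2%, 69.7% and 96.2% of the gene in TSCI and 49.7%, 0% and 49.7% in sham, which did not overlap. In neuron and synapse genes, 45 of 60 had members and 1 of 127 tested was called lower (0.116% over class j), the Eno2 isoform above, with a median difference of 0.18. Gphn and Cadps, whose isoforms were called lower above, are not on this list. Map1b, a microtubule-binding protein of axons, was almost wholly class j in every library, at 86.7% to 98.3% in TSCI and 88.0% to 97.6% in sham. Ank2 spread its 17 members over 59.8% to 69.3% of the gene in TSCI and 42.8% to 74.6% in sham.

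Splicing factors had the most members of any list, 192 in 53 of 55 genes, and none of 153 tested passed in level (limma; 12 had an unadjusted p under 0.05, and 9 higher and 1 lower did not overlap, where 5.72% and 2.56% of all class j isoforms tested did not). Hnrnpc, which binds uridine tracts in nascent RNA, had 8, holding 59.2% to 95.8% of the gene in TSCI and 74.7% to 91.2% in sham. For Mbnl2, a regulator of alternative exons, the share was 86.0%, 98.5% and 97.8% in TSCI and 93.3%, 22.8% and 74.4% in sham. Class j isoforms made up 30.8% to 36.2% of the list in TSCI and 36.9% to 44.9% in sham, which did not overlap, and 2 genes were higher and 6 lower in share without overlap, of 51 tested, where 5.16% and 4.25% of all genes tested were.

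Astrocyte transport and ependymal genes had none of 32 tested members called (limma; 6 had an unadjusted p under 0.05), with a median difference of -0.17. Slc1a2, the main glutamate transporter of astrocytes, had class j isoforms at 320 FPKM in sham replicate 1 and at most 24.9 in the other 5 libraries. Cell division genes had 14 tested members and none called (limma; 3 had an unadjusted p under 0.05), but 6 did not overlap and were higher in TSCI (5.72% of all class j isoforms tested were), with a median difference of 1.35. That of Tyms, the thymidylate synthase of DNA replication, had 20.8, 1.78 and 3.17 FPKM in TSCI and was listed at 0 in sham. Skeletal muscle genes, a check of tissue around the cord, had 4 tested members and none called (limma; 0 had an unadjusted p under 0.05). Their class = and j sum was 63.1 FPKM in sham replicate 1, 1099 in sham replicate 2 and 595 in sham replicate 3, against 103.1 to 223 in TSCI, so the level of muscle genes differed between the sham libraries, and their part in other results was not tested.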

How the data were processed

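RNA from the spinal cord of 6 sets of mice (3 TSCI, 3 sham) was sequenced, after depletion of ribosomal RNA and with strand kept, per the labels' protocols. Alignment and assembly used HISAT2, TopHat and StringTie in versions not stated, per the submitters' processing notes. Neither genome build nor class code tool is named: not given in the sources used here. Class j is read as in gffcompare: a multi-exon isoform that shares at least one junction with an annotated transcript and has at least one other. Start and end were identical for 94.6% of the 78061 annotated isoforms that GENCODE M21 (GRCm38) also holds, and coordinates are printed as GRCm38 on that basis.

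Levels are FPKM as deposited by the authors, not rescaled. The deposited coverage (signal) values gave the aligned bases, since FPKM is proportional to coverage within a library. The depth behind a single isoform is not known as counts, so no counting interval is given. A table of circular RNAs was not used here.

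Isoforms of all classes with a mean of at least 0.5 FPKM were tested with limma 3.58.1 with a mean-variance trend (R 4.3.3) on log2(FPKM + 0.5). Isoform and gene shares were tested with limma where a gene held both classes and at least 1 FPKM in every library. Benjamini-Hochberg adjustment covered all isoforms or genes fitted, at 0.05. For levels the prior degrees of freedom were infinite. Library values were compared by exact permutation over 20 splits. The functions were tested on simulated data. Structural readings and tables used Python 3.11.15.

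Named members were the 10 of highest mean FPKM, then the lowest p among those whose groups did not overlap (10 rises and 10 falls in level with at least 1 FPKM in the higher group, 8 and 8 in isoform share and in gene share), and up to 3 genes per list of highest class j level. One item that this rule takes is not reported here. The members and the 8 lists were chosen with earlier results of these data known. The other pseudocounts, filters, scalings, lane terms, the replicate number as a block and each library left out were tried as alternatives.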

Additional observations from a re-analysis of the deposited data

How the results depend on the processing

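The number of class j isoforms called in level, 41, was 58 with a pseudocount of 0.1, 31 with 1, 3 with no filter on low values, 8 with a mean of at least 1 FPKM, 27 with median-ratio scaling and 21 with quantile normalization. It was 0 with lane 8 as a covariate and 1 without both lane 8 libraries, an isoform of Hba-a1. Leaving out one library gave 11 to 212 calls, the most without sham replicate 1 and the fewest without TSCI replicate 3. Without sham replicate 2 it gave 24, of which 17 were among the 41. Variance settings chosen after seeing the data gave 32 with robust moderation and 4 with each isoform's own variance, with 30 and 0 shared. The cause of these changes was not tested. None of the called isoforms, nor those of Pcdh15 and Ktn1, changed direction in level under these settings. The uncalled isoforms of highest mean were not followed in this way. A kept direction was fixed in advance for the variance settings, lane covariate and replicate block, which leave the difference unchanged. Groups that do not overlap also cannot reverse under another pseudocount or with libraries left out. The kept direction is therefore no support for the calls.

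Same-numbered libraries deviated together only weakly (correlations 0.0515, 0.0448 and 0.000595). Those of differently numbered libraries ran from -0.141 to 0.117. With so few libraries such correlations cannot settle whether the numbers pair the samples. With the replicate number as a block, 1 isoform was called in level, MSTRG.16084.6 of Hba-a1, and 0 in share.

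The difference in class j share of the library, 1.08 points, was -0.216 without the 10 isoforms of highest mean, and -0.64 to 4.09 with one library left out. It was below 0 without TSCI replicate 1 (-0.64), sham replicate 2 (-0.277) or sham replicate 3 (-0.573). It was 1.08 with the pairing by replicate number. The share tests called 0 in every alternative run (limma), where 40 to 413 isoforms and 38 to 513 genes had an unadjusted p under 0.05. Gene share differences had a median standard error of 20.3 points, and 2 of the 41 isoforms called in level were above 0 in every library. The part of the spread between libraries and of 0 values in these results was not tested.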
